A study of Mus musculus with 6 samples.

Results

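Antibody constant regions are encoded by a small set of genes, and 10 of them, Ighm, Ighd, Ighg1, Ighg2b, Ighg3, Igha, Ighe, Igkc, Iglc1 and Iglc2, were followed here in mouse spleen with and without Dox. They are 10 of the 40808 gene IDs of the count table, 7 for heavy chains and 3 for light chains. All 10 passed the filter on low counts, but only 7 reached its level in both groups. Ighe reached it only in the libraries without Dox, and Ighd and Ighg3 only in those with Dox. The group was chosen by its readout: Igkc and Ighe were lower with Dox while genes of B cells were higher. Levels and differences of these genes between the groups are therefore given as a description, with no test.

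The libraries came from splenic leukaemia cells of mice given a bone marrow transplant, per the labels. There were 3 libraries without Dox (replicates 4, 5 and 6) and 3 with Dox (replicates 10, 11 and 12), and values of single libraries are given below in that order. By its title the study concerns ubiquitin-dependent restraint of NOTCH, a receptor that drives T cell development, through UVRAG, ITCH and ESCRT. The labels state no genotype, strain, sex, age, Dox dose or duration, and not which gene Dox was to switch. They also do not say whether libraries of a group came from separate mice. P-values therefore measure only the spread between these libraries, which may be technical. Nor do the labels say which of the recipient's own spleen cells remained in the preparation.

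An antibody is built of heavy and light chains whose constant regions define its class. A naive B cell reads Ighm and, by alternative splicing of the same long transcript, Ighd. Class switch recombination then deletes the genes in between and places Ighg, Ighe or Igha behind the variable region. Igkc encodes the kappa light chain constant region and the Iglc genes the lambda ones. B cells use the membrane form of the chains as their antigen receptor, together with CD79A and CD79B, and plasma cells secrete the other form in bulk. Each heavy chain gene has 2 transcript models in GENCODE M21, and a count per gene does not separate the membrane from the secreted form.

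The constant region genes resemble each other to different degrees, which sets how surely a 3′ read can be given to 1 of them. To show this, the last 90 coding bases of the secreted form of the 4 IgG genes follow, from GENCODE M21 transcripts on GRCm38, minus strand, 5′ to 3′. Capitals mark bases that differ from Ighg1.
Ighg1, chr12:113328979-113329068: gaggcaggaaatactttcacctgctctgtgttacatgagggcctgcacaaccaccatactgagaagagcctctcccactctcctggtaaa
Ighg3, chr12:113359668-113359757: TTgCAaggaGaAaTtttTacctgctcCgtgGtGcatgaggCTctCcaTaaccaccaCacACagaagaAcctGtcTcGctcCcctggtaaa
Ighg2b, chr12:113306392-113306481: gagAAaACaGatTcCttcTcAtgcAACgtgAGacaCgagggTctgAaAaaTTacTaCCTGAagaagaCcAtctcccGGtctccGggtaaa
Ighg2c, chr12:113287392-113287481: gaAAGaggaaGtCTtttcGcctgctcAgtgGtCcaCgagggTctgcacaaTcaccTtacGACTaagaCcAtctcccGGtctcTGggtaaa
Against Ighg1, Ighg3 differed at 23, Ighg2b at 31 and Ighg2c at 24 of these 90 bases. The longest run shared by whole transcripts was 37 bases for Ighg1 and Ighg2b, 31 for Ighg1 and Ighg3 and 78 for Ighg2b and Ighg2c, and it was 14 for Ighg1 and Ighe.

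The lambda genes are closer. The last 90 coding bases of the lambda constant regions are printed in the same way, with capitals where a base differs from Iglc2.
Iglc2, chr16:19198539-19198628: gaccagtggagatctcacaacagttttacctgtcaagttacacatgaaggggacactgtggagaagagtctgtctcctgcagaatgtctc
Iglc3, chr16:19065368-19065457: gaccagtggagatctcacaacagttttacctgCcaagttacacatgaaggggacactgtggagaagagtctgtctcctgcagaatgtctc
Iglc1, chr16:19061755-19061844: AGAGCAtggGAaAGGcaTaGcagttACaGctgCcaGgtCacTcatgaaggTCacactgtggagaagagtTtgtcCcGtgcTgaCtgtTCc
Iglc3, which is not among the 10 genes, differed from Iglc2 at 1 of the 90 bases, and the longest run shared by their transcripts was 79 bases. Iglc1 differed at 29 bases, with a longest shared run of 19. Whether reads that fit several genes were dropped or split is not given in the sources used here, so counts of Iglc2 are uncertain.

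Another set shows the heavy chain tails that join the J chain. The last 60 coding bases of the secreted forms of Ighm, Igha and Ighe are given, with the penultimate codon in capitals where it encodes cysteine. That cysteine bonds IgM and IgA to the J chain, the product of Jchain.
Ighm, chr12:113420870-113420929: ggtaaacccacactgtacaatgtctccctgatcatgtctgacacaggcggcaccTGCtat
Igha, chr12:113258771-113258830: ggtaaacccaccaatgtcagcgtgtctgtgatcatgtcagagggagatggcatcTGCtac
Ighe, chr12:113271276-113271335: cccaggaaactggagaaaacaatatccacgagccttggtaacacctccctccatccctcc
Ighm and Igha end in such a codon and Ighe does not.

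The libraries without Dox carried mainly IgG1 heavy chain RNA, with IgM and IgE at similar lower levels, and those with Dox mainly IgM heavy chain RNA. In normalized CPM (a gene's counts relative to its library's total after TMM scaling), all 3 libraries with Dox lay above all 3 without it for 4 genes, Ighm, Ighd, Ighg3 and Igha. For another 4, Ighg1, Ighe, Igkc and Iglc1, they lay below, and for Ighg2b and Iglc2 the groups overlapped. Of 14110 tested genes, 30% lay wholly above and 29.6% wholly below with Dox, and since the genes were selected on this contrast nothing is read from their counts. The median log2 difference of the 10 genes was 0.85, with a range from -8.22 to 5.56, against a median of 0.07 over all tested genes. In bulk libraries fewer cells of a type and less RNA per cell cannot be told apart.

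**Figure D1:**
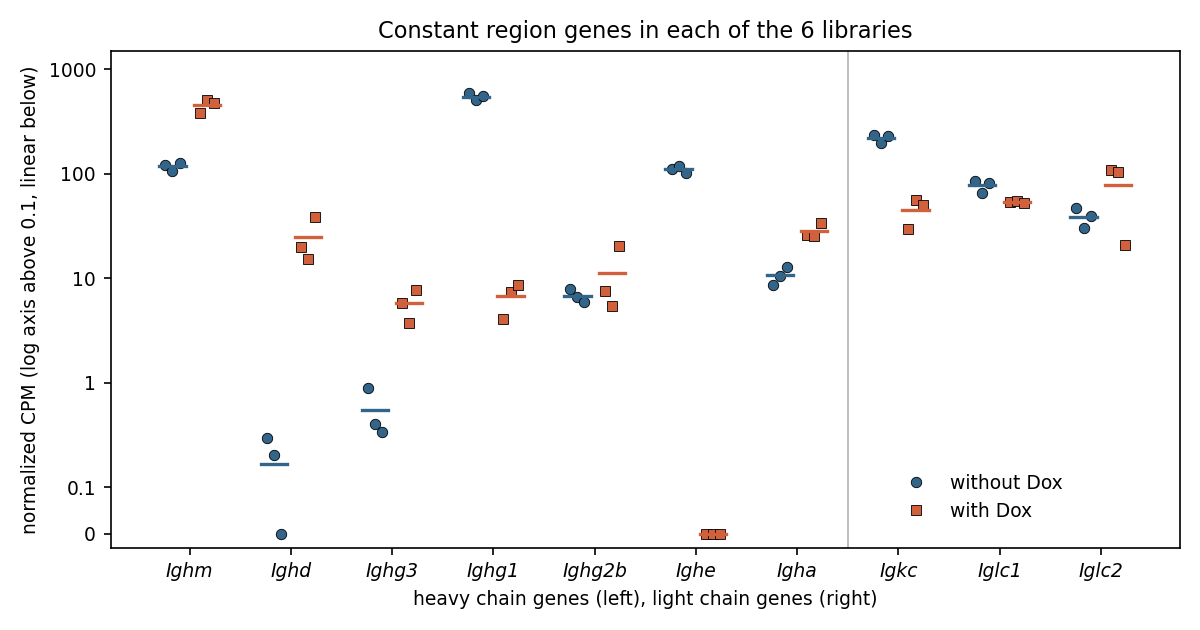
Normalized CPM of the 10 constant region genes in each library, on an axis that is logarithmic above 0.1 and linear below. Circles are libraries without Dox, squares those with Dox and bars the group means; Ighe is at 0 in all 3 libraries with Dox, and Ighd is near 0 in all 3 without.

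Ighm, at chr12:113418558-113422730 on the minus strand, encodes the mu chain of IgM. It had 808, 522 and 742 counts without Dox and 2783, 4977 and 3600 with Dox. All libraries with Dox were higher, and the ranges were well apart. Its mean normalized CPM was 117 ± 10.4 without and 455 ± 68.8 with Dox (SD, 3 libraries each), which is 3.88-fold higher.

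Ighd, the delta chain gene that starts 6.406 kb downstream of the start of Ighm, had 2, 1 and 0 counts without Dox and 146, 149 and 294 with Dox. The libraries without Dox were at or near 0. With Dox the mean was 24.6 ± 12.4 normalized CPM (SD, n = 3), at least 47.3-fold higher than a floor of 3 counts per library. For every 100 counts of Ighm there were 0.248, 0.192 and 0 counts of Ighd without Dox, and 5.25, 2.99 and 8.17 with Dox.

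Ighg1, the gamma-1 gene at chr12:113325240-113330523, had 3938, 2477 and 3259 counts without Dox, more than any other of the 10 genes in each of these libraries. With Dox it had 30, 72 and 66. The means were 547 ± 43.1 and 6.73 ± 2.38 normalized CPM (SD, n = 3 each), which is 81.3-fold lower with Dox.

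Ighe, the epsilon gene of IgE at chr12:113269260-113273248, had 740, 583 and 602 counts without Dox and 0 in each of the 3 libraries with Dox. The mean without Dox was 110 ± 8.05 normalized CPM (SD, n = 3). With Dox the level was at least 297-fold lower, taking 3 counts per library as the limit that a count of 0 allows, which covers counting error only. Ighe stood at 18.8, 23.5 and 18.5 counts per 100 of Ighg1 without Dox.

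The other gamma genes were low in both groups. Ighg3 had 6, 2 and 2 counts without Dox and 43, 36 and 59 with Dox, a mean 10.6-fold higher that rests on few counts without Dox. Ighg2b had 53, 33 and 35 counts without Dox and 55, 53 and 156 with Dox, and the groups overlapped. Its means were 6.84 ± 0.997 and 11.2 ± 8.20 normalized CPM (SD, n = 3 each). Replicate 12 set that difference: the log2 difference was 0.71 with all libraries and -0.10 without on_Dox replicate 12. Ighg2c, the nearest relative of Ighg2b and not among the 10 genes, had 50, 24 and 60 counts without Dox and 19, 0 and 7 with Dox.

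Igha, the alpha gene of IgA at the downstream end of the locus, had 58, 52 and 76 counts without Dox and 189, 245 and 259 with Dox. The means were 10.7 ± 2.12 and 28.4 ± 5.01 normalized CPM (SD, n = 3 each), and all libraries with Dox were higher, 2.65-fold in the mean.

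Along chromosome 12 the heavy chain genes follow each other in the order Ighm, Ighd, Ighg3, Ighg1, Ighg2b, Ighg2c, Ighe and Igha. The start of Ighg1 lay 92.207 kb, that of Ighe 149.482 kb and that of Igha 162.494 kb downstream of the start of Ighm. Levels did not follow this order in either group. Without Dox the high genes were Ighm at one end and Ighg1 and Ighe within the locus, while Ighd and Ighg3, which lie between Ighm and Ighg1, had at most 6 counts each in a library. With Dox the level was highest at Ighm, and the mean of Igha at the far end was above those of Ighg1, Ighg2b and Ighe, also per kb of exon.

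**Figure D2:**
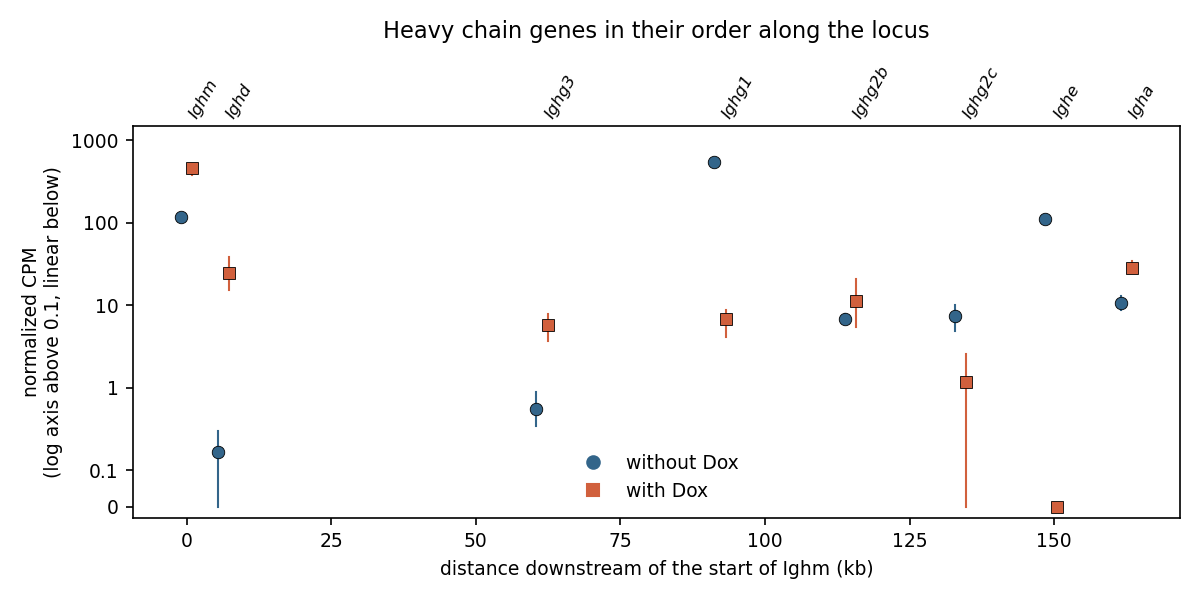
Normalized CPM of 8 heavy chain genes, Ighg2c included, against the distance of each gene's start from that of Ighm in kb, on an axis logarithmic above 0.1. Symbols are group means and vertical lines span the 3 libraries; the groups lie farthest apart at Ighd, Ighg1 and Ighe.

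Genes bordering the heavy, kappa and lambda loci were not among those chosen and could be tested. Of the 3 nearest genes on each side of each locus, 18 in all, 13 were tested, and 2 were called higher and 7 lower with Dox (edgeR quasi-likelihood test, Benjamini-Hochberg adjusted p under 0.05 with all tested genes in the adjustment). Of all tested genes, 23.6% were called higher and 22.1% lower. Beside the heavy chain locus all 4 tested genes were lower. Tmem121, the one closest to Igha, fell from 26.4 ± 7.71 to 1.07 ± 0.928 normalized CPM (SD, n = 3 each) with an edgeR adjusted p = 0.000881. Crip1, Tedc1 and Zfp386 had log2 fold changes of -0.87, -1.19 and -1.62 (edgeR adjusted p = 0.00241, 0.0479 and 0.0136). Beside the kappa locus, Il12rb2, a subunit of the IL-12 receptor, fell from 46.6 ± 5.84 to 7.33 ± 1.99 normalized CPM (SD, n = 3 each; edgeR adjusted p = 6.58e-05). On the other side, the metabolic enzyme gene Rpia was at 54.5 ± 10.5 and 54.3 ± 7.42 normalized CPM (SD, n = 3 each) and was not called (edgeR adjusted p = 0.985). Beside the lambda locus, the olfactory receptor gene Olfr164 rose from 0.461 ± 0.196 to 12.1 ± 1.77 normalized CPM (SD, n = 3 each; edgeR adjusted p = 0.000188), while Mrpl40 on the other side fell by 2.97 on the log2 scale (edgeR adjusted p = 9.57e-05).

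Igkc, at chr6:70726435-70726966 on the plus strand, is the only kappa constant region gene. It had 1586, 974 and 1363 counts without Dox and 217, 540 and 382 with Dox, with no overlap between the groups. The means were 222 ± 21.2 and 45.2 ± 13.8 normalized CPM (SD, n = 3 each), 4.91-fold lower with Dox.

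Variable segments joined to Igkc did not show the same gap. Summed over 162 Igkv gene IDs, there were 34.5, 31.2 and 35.9 normalized CPM without Dox and 30.1, 49.5 and 29.3 with Dox, so the groups overlapped. A 3′ read seldom reaches a variable segment, and these sums come from 154 to 481 counts per library.

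Iglc1, at chr16:19061618-19062071, had 566, 323 and 482 counts without Dox and 393, 528 and 395 with Dox. In normalized CPM the means were 77.2 ± 10.3 and 53.3 ± 1.16 (SD, n = 3 each), 1.45-fold lower with Dox. The groups did not overlap after TMM scaling, but with scaling by library size only they did, and the difference was then -0.22 on the log2 scale against -0.53.

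Iglc2, at chr16:19198396-19200351, had 315, 148 and 232 counts without Dox and 797, 1000 and 159 with Dox. In normalized CPM, replicates 10 and 11 were above all libraries without Dox, and replicate 12, at 20.95, was below them. In counts, replicate 12 was above no_Dox replicate 5. The means were 38.8 ± 8.52 and 77.4 ± 49.0 normalized CPM (SD, n = 3 each). Without on_Dox replicate 12 the log2 difference was 1.43 in place of 0.998 and the groups no longer overlapped. Iglc3, its near-identical copy, which lies beside Iglc1, had 89, 71 and 119 counts without Dox and 535, 1054 and 294 with Dox.

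The lambda variable genes differed between the groups in which gene was read. Iglv1 had 193, 131 and 152 counts without Dox and 4, 5 and 0 with Dox. Iglv3 had 14, 5 and 15 without Dox and 93, 193 and 258 with Dox. Iglv2 had 18, 8 and 9 without Dox and 0, 0 and 61 with Dox, all of the last in replicate 12. These segments were looked at after the constant region values were seen.

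As shares of counts, Ighg1 made up 69.0% ± 1.39 (SD, n = 3) of the heavy chain counts without Dox and 1.24% ± 0.287 with Dox. Ighe made up 14.0% ± 1.69 without Dox and 0 with Dox. Ighm made up 14.8% ± 0.822 without Dox and 85.6% ± 4.39 with Dox, and Ighm and Ighd together held 87.8% to 92.7% of heavy chain counts in the libraries with Dox. Igha accounted for 1.35% ± 0.293 without Dox and 5.36% ± 0.810 with Dox. The libraries within each group were alike in this make-up, and no library of one group came near those of the other in its share of Ighm.

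Kappa made up 64.3%, 67.4% and 65.6% of the light chain counts without Dox and 15.4%, 26.1% and 40.8% with Dox. The share of Iglc2 was 10.2% to 12.8% without Dox and spread from 16.99% to 56.6% with Dox, lowest in replicate 12, which had the highest kappa share.

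**Figure D3:**
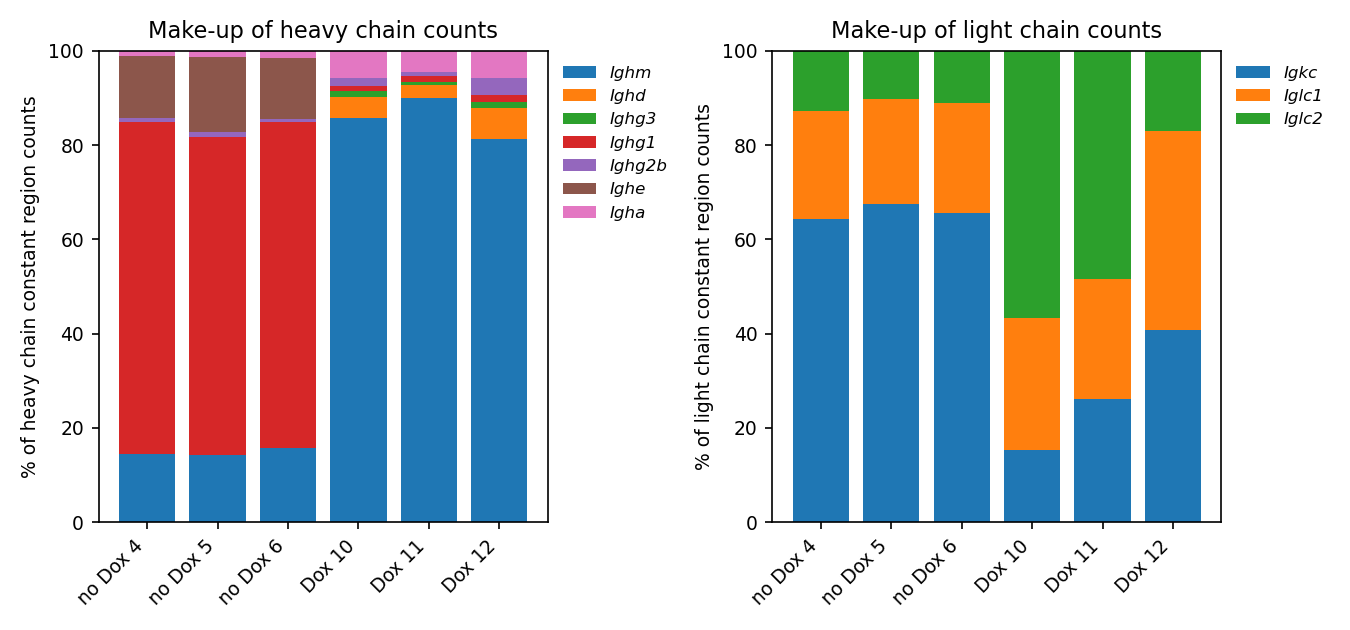
Stacked bars give the percent of heavy chain (left) and light chain (right) constant region counts held by each gene in each library. Ighg1 fills most of each heavy chain bar without Dox and Ighm most of those with Dox; kappa is at least 64.3% of light chain counts without Dox and at most 40.8% with Dox.

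The summed level of the 10 genes was 1205, 1037 and 1152 normalized CPM without Dox and 633, 782 and 708 with Dox, 1.598-fold lower in the mean. With Ighg2c and Iglc3 added, the libraries without Dox had 1225, 1056 and 1182 and those with Dox 709, 891 and 747 normalized CPM, again with no overlap. As a share of all counts, without TMM scaling, the 10 genes held 0.104%, 0.0923% and 0.107% of all counts without Dox and 0.0716%, 0.0871% and 0.0759% with Dox. When Ighg2c and Iglc3 were counted too, the shares overlapped, at 0.0940% to 0.110% without Dox and 0.0801% to 0.0992% with Dox. The ratio of light to heavy chain counts was 0.425 ± 0.0269 without and 0.339 ± 0.115 with Dox (SD, n = 3 each), with overlap. With Ighg2c and Iglc3 counted the direction turned, at 0.441 ± 0.0266 and 0.479 ± 0.175 (SD, n = 3 each), again with overlap.

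The order of the genes by level depends on whether levels are divided by exon length. A 3′ library gives about 1 fragment per transcript whatever its length, and on the undivided scale of normalized CPM the order without Dox was Ighg1, Igkc, Ighm, Ighe, Iglc1, Iglc2, Igha, Ighg2b, Ighg3 and Ighd, in which Ighm and Ighe overlapped. With Dox Ighm came first on that scale, apart from all others, Ighe was at 0, and the neighbours among the other 8 genes overlapped. Per kilobase of exon, the order without Dox was Igkc at 417 normalized CPM per kb, Ighg1 at 211, Iglc1 at 170, Ighe at 69.5, Iglc2 at 63.4 and Ighm at 62.2, followed by Igha, Ighg2b, Ighg3 and Ighd. Ighe, Iglc2 and Ighm overlapped as neighbours in that order, as did Ighg3 and Ighd. With Dox the order was Ighm at 241 normalized CPM per kb, Iglc2 at 127, Iglc1 at 117 and Igkc at 84.9, then Ighd, Igha, Ighg2b, Ighg1, Ighg3 and Ighe. Iglc2 overlapped Iglc1, Ighd overlapped Igha, and Ighg2b, Ighg1 and Ighg3 overlapped as neighbours.

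B cell genes were named by the rule that chose the group, so their values too are a description. Of 22 genes of B cell receptor partners and the B cell surface, 21 were higher and 1, Cd24a, was lower with Dox. Cd79a, which carries the signal of the membrane antibody, had 35, 14 and 24 counts without Dox and 501, 628 and 690 with Dox. Its partner Cd79b had 14, 16 and 32 without Dox and 791, 1045 and 1069 with Dox. The ratio of Igkc to Cd79a counts was 57.2 ± 12.1 without and 0.616 ± 0.220 with Dox (SD, n = 3 each). For Ighm the same ratio was 30.4 ± 7.11 and 6.23 ± 1.48 (SD, n = 3 each), so Ighm too was lower relative to Cd79a with Dox although its own level was higher. Cd72 was at 0 in all 3 libraries without Dox.

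Counts of the remaining lists are given with and without the genes they share with the B cell list, and without Zfp318, Fcmr and Fcer2a, since B cell genes entered the choice. The lists still hold other genes that B cells read, such as Bach2, Irf8, Pou2f2, Pou2af1, Mef2c, Bcl11a, Tnfrsf13b, Mzb1 and Vpreb3, all called higher, so their counts of higher calls are a description and are no evidence apart from the choice. Irf4, Prdm1, Ell2 and Stat6 can also be read by cells of the B lineage. Their p-values below are likewise no evidence apart from the choice. They are set against all tested genes, of which 45.6% were called in either direction at an edgeR adjusted p under 0.05. The split depends on the scaling: of all calls 51.6% were higher after TMM scaling and 64.3% after scaling by library size only, which shifted the overall median log2 change by 0.31. The lists share some genes, such as Irf4, Ell2 and Cd28.

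Of 18 tested plasma cell genes 9 were called higher and 4 lower, with a median log2 fold change of 0.86. One of the lower calls, Cd28, is also in the T cell list. Jchain, whose product joins IgM and IgA chains at the cysteine shown above, had 1180, 902 and 972 counts without Dox and 761, 1008 and 1086 with Dox. Its level fell by 0.58 in log2 units (SE 0.18, edgeR adjusted p = 0.0242), a call that was lost in 5 alternatives with adjusted p up to 0.219, among them leaving out no_Dox replicate 4 or 5 or on_Dox replicate 10 or 11. Sdc1, the plasma cell surface proteoglycan CD138, which other cells also carry, fell from 36.6 ± 7.47 to 2.40 ± 3.11 normalized CPM (SD, n = 3 each; log2 fold change -3.87, edgeR adjusted p = 0.00231).

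Mzb1, a chaperone of antibody assembly present in marginal zone B cells and plasma cells, was at 33.6 ± 5.89 normalized CPM without and 70.0 ± 6.52 with Dox (SD, 3 libraries each) and is described without a test, since B cells read it. Xbp1, the secretory regulator of plasma cells, had 287, 223 and 288 counts without Dox and 410, 677 and 234 with Dox and was not called (log2 fold change 0.19, edgeR adjusted p = 0.607). Prdm1, which encodes BLIMP-1, was called higher at 1.70 on the log2 scale (edgeR adjusted p = 0.0163), but not without no_Dox replicate 5 or 6 or on_Dox replicate 10 (adjusted p up to 0.0839). Irf4 was called higher at 0.66 (edgeR adjusted p = 0.0355), a call lost in 6 alternatives, 5 of which leave out a single library other than on_Dox replicate 12 (adjusted p up to 0.206). Glipr1 rose by 4.65 on the log2 scale (edgeR adjusted p = 3.45e-05).

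Set against Jchain, the ratio of Igkc counts was 1.28 ± 0.172 without and 0.391 ± 0.130 with Dox (SD, n = 3 each). For Ighm the ratio was 0.676 ± 0.0927 and 3.97 ± 0.855 (SD, n = 3 each), in the other direction. The groups did not overlap in either ratio.

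**Figure D4:**
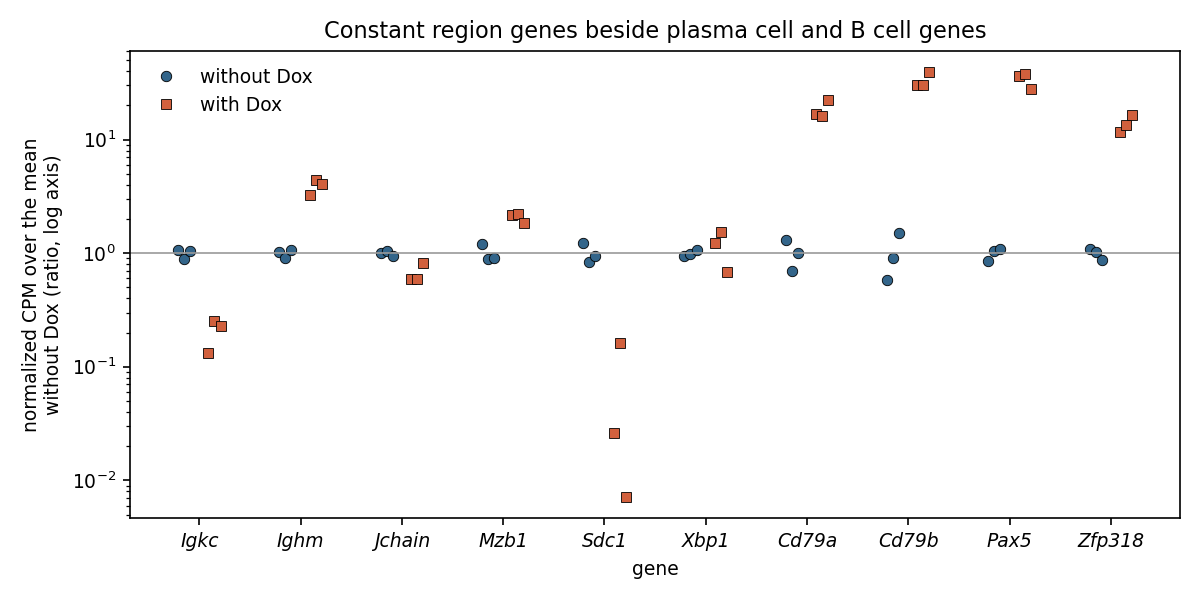
Each library's normalized CPM divided by the mean of the 3 libraries without Dox, on a log axis, for Igkc, Ighm, 4 plasma cell genes (Jchain, Mzb1, Sdc1 and Xbp1) and 4 genes of B cells (Cd79a, Cd79b, Pax5 and Zfp318). Igkc, Jchain and Sdc1 lie below 1 in all 3 libraries with Dox, and Ighm, Mzb1 and the 4 B cell genes above 1.

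Folding and secretion of antibody chains in the endoplasmic reticulum was represented by 27 tested genes, of which 5 were called higher and 9 lower (median log2 fold change -0.44). Spcs1, a subunit of the signal peptidase, fell from 133 ± 16.5 to 21.6 ± 4.31 normalized CPM (SD, n = 3 each; log2 fold change -2.63, edgeR adjusted p = 1.13e-05). Sdf2l1, a partner of the chaperone BiP, fell by 2.05 on the log2 scale (edgeR adjusted p = 0.00243).

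Among 12 factors of heavy chain RNA processing, 2 were called higher and 7 lower (median log2 fold change -0.999), and with Zfp318 they were 3 and 7 of 13 (median -0.96). Zfp318, which B cells need to make the long transcript spliced to Ighd, had 105, 73 and 74 counts without Dox and 1228, 1877 and 1789 with Dox. It is a gene of B cells and is described without a test. Ell2, an elongation factor that favours the secreted form in plasma cells, rose by 1.72 on the log2 scale (edgeR adjusted p = 0.00031). Eaf1, which binds ELL proteins, had 142, 139 and 169 counts without Dox and 32, 0 and 3 with Dox, a log2 fold change of -4.08 (edgeR adjusted p = 0.00641).

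Of 30 tested genes of class switch recombination and hypermutation, 2 were called higher and 11 lower (median log2 fold change -0.07). The count higher was 1 without no_Dox replicate 5 and 5 with scaling by library size only. The end-joining genes Lig4 and Xrcc6, which repair DNA breaks in most cell types, had log2 fold changes of -4.05 and -3.86 (edgeR adjusted p = 5.38e-06 and 1.56e-06).

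Signals that direct the choice of isotype gave 11 genes called higher and 2 lower of 22 tested (median log2 fold change 1.24) with Cd40, a gene of the B cell list, left out. With it they were 12 and 2 of 23 (median 1.38), and 4 were lower without on_Dox replicate 12. Il4, which drives switching to IgG1 and IgE in mice, had 0 counts in all 6 libraries, as did Il13 and Il5. Cd40, through which B cells receive T cell help, had 15, 8 and 0 counts without Dox and 137, 259 and 260 with Dox. Stat6, which relays the IL-4 signal, rose from 8.55 ± 1.002 to 25.3 ± 9.72 normalized CPM (SD, n = 3 each; log2 fold change 1.57, edgeR adjusted p = 0.00507).

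The list of transcription factors that bind antibody gene promoters and enhancers also holds Id2 and Id3, which inhibit such factors and do not bind DNA. Without Pax5, Ebf1 and Spib, which the B cell list also holds, 14 of 22 genes were called higher and 6 lower (median log2 fold change 0.83). Id3 was among the 6, and Id2 was not called. The 14 still include B cell factors such as Bach2, Irf8 and Pou2f2. With Pax5, Ebf1 and Spib the counts were 17 and 6 of 25 (median 1.24). Pax5 had 85, 77 and 96 counts without Dox and 3959, 5446 and 3124 with Dox, and Ebf1 had 33, 37 and 21 and 2940, 4403 and 2470.

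Receptors that bind constant regions gave 2 genes called higher and 2 lower of 9 tested (median log2 fold change 0.66) when Fcmr and Fcer2a, which are read mainly in B cells, were left out. With them the counts were 4 and 2 of 11 (median 1.10), and the lower count was 1 without no_Dox replicate 4 or 6. Fcmr, the receptor of IgM, had 4, 1 and 2 counts without Dox and 566, 1250 and 1079 with Dox. Fcer2a, the low-affinity IgE receptor CD23 of B cells, had 2, 20 and 1 counts without Dox and 438, 567 and 693 with Dox. Both are described without a test, since genes of B cells entered the choice of the group. Pigr, which carries IgA and IgM across epithelia, had 0 counts without Dox and 16, 0 and 16 with Dox and was not tested.

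The early lymphocyte list covers V(D)J recombination and the surrogate light chain, and also holds Il7r, Cd93, Erg and Lef1, which belong to neither. Of 8 tested genes, 3 were called higher, including Cd93 and Erg, and 5 lower, including Il7r and Lef1 (median log2 fold change -2.41). The count lower was 3 without no_Dox replicate 4 or 6 or on_Dox replicate 10 or 11, and that higher was 1 without no_Dox replicate 4. Dntt, which adds bases at V(D)J joints, had 911, 658 and 969 counts without Dox and 7, 0 and 0 with Dox (log2 fold change -8.89, edgeR adjusted p = 4.86e-06). Rag1 fell by 5.23 on the log2 scale (edgeR adjusted p = 1.85e-05). Both genes are read in early T as well as early B cells, and Igll1 and Vpreb2 had 0 counts in all libraries.

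**Figure D5:**
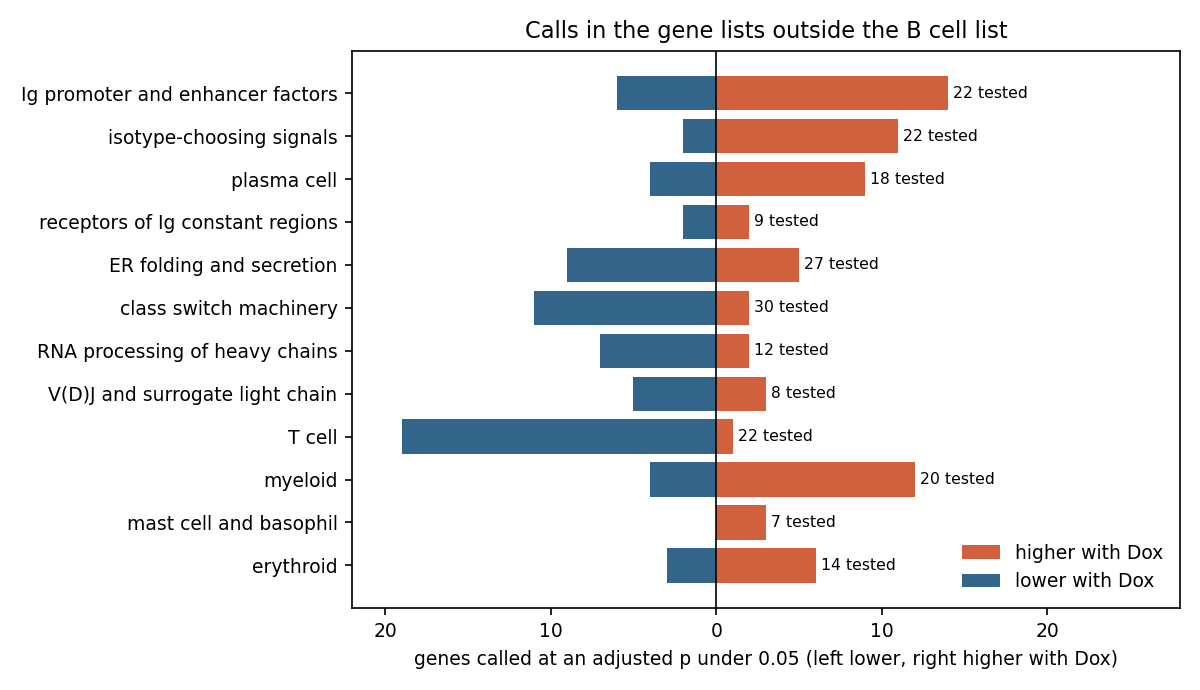
Number of genes called higher (right) or lower (left) with Dox at an edgeR adjusted p under 0.05 in 12 gene lists, with the number tested beside each bar; genes shared with the B cell list, Zfp318, Fcmr and Fcer2a are left out, other genes that B cells read are not. The bar of the T cell list reaches farthest to the left, 19 of 22, and that of the transcription factors farthest to the right, 14 of 22.

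Other cell types moved with the same groups. Of 22 T cell markers 19 were called lower and 1, Cd7, higher, and their summed level ran from 3919 to 4173 normalized CPM without Dox and from 345 to 444 with Dox, with no marker at 0 throughout a group. Thy1 and Ptcra had log2 fold changes of -5.72 and -6.29 (edgeR adjusted p = 3.30e-06 and 0.000272). Of 20 tested myeloid markers 12 were called higher and 4 lower (2 lower without no_Dox replicate 4), with sums of 778 to 902 and 3049 to 3125 normalized CPM, and Ly6g was at 0 in all libraries without Dox and Siglecf in all with Dox. Mpo, a granule enzyme of neutrophils, rose by 6.94 on the log2 scale (edgeR adjusted p = 1.92e-06). The B cell list summed to 604 to 674 normalized CPM without Dox and 2968 to 3163 with Dox. Cd24a, its 1 lower gene, supplied 450 ± 33.7 and 164 ± 10.3 of this (SD, n = 3 each), and the other 21 genes summed to 178 ± 6.23 and 2894 ± 101 (SD, n = 3 each). The plasma cell list summed to 766 to 822 and 827 to 906 normalized CPM, with no marker at 0 throughout a group. Of 7 tested mast cell and basophil markers, cells that bind IgE, 3 were called higher and 0 lower by edgeR, with 2 lower by DESeq2 and 3 lower without on_Dox replicate 12. Their sums were 19.7 to 25.1 and 77.0 to 97.9 normalized CPM. Mcpt8 and Hdc rose by 4.03 and 5.60 on the log2 scale (edgeR adjusted p = 0.000498 and 4.42e-05). Cpa3, Mcpt4 and Tpsb2 went the other way, with all libraries with Dox below those without. Their log2 fold changes were -2.56, -2.31 and -3.02, on few counts, and edgeR did not call them. Fcer1a and Cma1 also lay below with Dox but were not tested, and Cma1 was at 0 in all libraries with Dox. The part of these cell types in the levels of the constant region genes was not tested.

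Total counts ran from 5541486 to 8725767 per library. Haemoglobin genes held 8.61% to 9.04% of counts without Dox and 14.1% to 15.9% with Dox. Among genes with 1 to 30 counts in a library, 27.9% to 43.0% had 1 to 3 counts without Dox and 15.04% to 16.02% with Dox. Replicate spread, as the ratio of variance to mean in genes of moderate counts (median, scaled for 3 libraries), came to 4.69 in the group without and 15.6 in the group with Dox. The part of these differences in the zeros and floors given above was not tested. Y-linked genes had 545 to 801 counts per library without Dox and 0 with Dox, and Xist had 193 to 324 and 3347 to 5669. Each library without Dox thus held both Y-linked and Xist counts. Whether these came from a mix of donor and recipient cells was not tested. The sex of the cells, any such mix and Dox cannot be told apart in any comparison given here.

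By their pattern over the 6 libraries, the tested genes outside the immunoglobulin genes that were most like each constant region gene were found from the root mean square distance of centred log2 CPM with a prior count of 2. For a gene at or near 0 in one group (Ighd, Ighg3 and Ighe) this distance depends on the prior count and on the level in the other group. Igkc was closest to Cct4, a subunit of the chaperonin that folds actin and tubulin, at 0.0882, and to the actin-severing Cfl1 at 0.0906. Ighm was closest to Kdr, a receptor of vascular growth factor, at 0.102 and Kif1b, a motor protein, at 0.107. The nearest genes to Ighe were 1500009L16Rik at 0.389 and the Y-linked Ddx3y at 0.623, both at 0 normalized CPM with Dox. Ighg1 was closest to H2-T3 at 0.331, Ighd to Gm9861 at 0.327, Ighg3 to Epha3 at 0.143 and Ighg2b to Thbs2 at 0.127. H2-T3 was at 0 normalized CPM with Dox, where Ighg1 was not, so that distance too depends on the prior count. Igha was closest to Tada2b at 0.0748, Iglc1 to Lgals3 at 0.0721 and Iglc2 to Apol10b at 0.157. Among the 10 genes themselves, Ighm and Igha lay 0.363 apart and Ighg1 and Ighe 1.17.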

How the data were processed

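Libraries of mRNA 3′ ends were made from poly(A) RNA with a forward QuantSeq kit, per the labels' protocols. The authors deposited unnormalized counts for each library and Entrez gene ID; STAR, featureCounts and GRCm38 are named in the submitters' processing notes, without versions. The annotation, and how reads fitting several genes were treated, are not given in the sources used here. GENCODE models of the 10 genes run 3 (Ighe) to 1374 (Igha) bases past the RefSeq 3′ end, and a 3′ read beyond the model used would be lost; that effect was not tested. Symbols came from RefSeq (96.49% of IDs), coordinates and sequences from GENCODE M21, and identities from alignments in Biopython 1.88.

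Low counts were removed by edgeR's filterByExpr (at least 10 counts, 15 in total) and groups compared with edgeR 4.0.16 in R 4.3.3 (TMM factors, quasi-likelihood test on all 6 libraries without covariates, Benjamini-Hochberg threshold 0.05), after the script was tested on simulated data. Normalized CPM are counts over TMM-scaled library totals. Depth was 5541486 to 8725767 counts per library, and intervals of counting error are not given because the spread between libraries sets the precision. Floors are 3 counts per library.

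The 10 genes, the gene lists and the naming rule were chosen with earlier results of these data known. Each list's 2 largest called changes without overlap and with a group mean of at least 10 CPM were named, with a set of antibody-related genes (1 is not reported here), the genes most alike to each constant region gene, and neighbours of the loci. Further names were chosen once their values were known. Alternatives were RLE factors, library size only, no low-count filter, DESeq2 1.42.0, haemoglobin genes left out, and each replicate left out. Levels per kb of exon, Ighg2c and Iglc3 counted in the shares, and genes shared with the B cell list, Zfp318, Fcmr and Fcer2a left out of the other lists, were chosen after seeing the data. The lists of erythroid genes (6 higher and 3 lower of 14) and of genes of nearly all white blood cells (4 higher and 3 lower of 10) served as context.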

Additional observations from a re-analysis of the deposited data

How the results depend on the processing

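No paired analysis was possible because the labels state no pairing between libraries without Dox (4 to 6) and those with Dox (10 to 12). Of the values recomputed under the alternatives, 437 stayed within the replicate spread or within 1.5 times of a count, and 28 moved beyond it. Scaling by library size only moved the log2 difference to 2.26 for Ighm, 1.71 for Igha, -7.90 for Ighe and -0.22 for Iglc1. It also gave 5 class switch genes called higher. Called lower were 1 constant region receptor, 3 early lymphocyte genes and 1 gene of nearly all white blood cells. Mast cell and basophil markers called lower numbered 1 with no low-count filter and 2 with DESeq2. Constant region receptors called higher numbered 2 with Fcmr and Fcer2a left out. With Ighg2c and Iglc3 counted, the shares with Dox were 0.0865% of the library and 0.479 light per heavy chain count, and kappa was 62.8% of light chains without Dox.

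Leaving out each replicate in turn, the log2 difference ranged from -0.10 to 1.01 for Ighg2b and from -0.71 to -0.50 for Iglc1, and 1 to 2 of the 10 genes overlapped between groups. The number called higher ranged from 1 to 3 for class switch and from 1 to 3 for early lymphocyte genes. The number called lower ranged from 2 to 4 for isotype signals and from 1 to 3 for constant region receptors. It was 3 to 5 for early lymphocyte genes, 2 to 4 for myeloid markers and 0 to 3 for mast cell and basophil markers. Over all genes, 2284 to 3396 were called higher and 2459 to 3629 lower. The cause of these shifts was not tested. Low counts limit Ighd and Ighg3 without Dox, and Iglc2 cannot be separated surely from Iglc3.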
